A study of Monodelphis domestica with 6 samples.

Results

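Small leucine-rich proteoglycans (SLRPs) are secreted matrix proteins whose core folds into a curved stack of leucine-rich repeats. They bind collagen fibrils, set the diameter and spacing of the fibrils, and hold growth factors in the matrix. Most carry chondroitin, dermatan or keratan sulfate chains, and in skin and other connective tissue they are made mainly by fibroblasts. Members were chosen by symbol, as DCN, BGN, LUM, FMOD, OGN, OMD, ASPN, PRELP, EPYC and KERA. Of these 10 genes, 6 had a row among the 35665 genes measured, and BGN, OGN, OMD and ASPN are not analysed here. All 6 genes with a row (DCN, LUM, FMOD, PRELP, EPYC and KERA) passed the filter on low values and were tested.

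The genes were compared between neonatal skin fibroblasts (neoSFs) of *Monodelphis domestica*, a small laboratory opossum, and induced pluripotent stem cells (monoiPSCs) reprogrammed from such fibroblasts. The neoSFs were untreated early-passage cultures from female pups aged 10 days, 1 library from the inbred strain FD2M1 and 1 from the inbred strain LSD1. The 4 monoiPSC libraries were 1 FD2M1 line and 1 LSD1 line, each at passage 15 and passage 25, after delivery of episomal plasmids with human OCT4, SOX2, NANOG, KLF4, LIN28 and cMYC and a mouse p53 fragment, and were grown without feeder cells in medium with LIF and bFGF. Each strain had 1 line, so line and strain cannot be told apart, and the libraries of 1 line at its 2 passages are not separate derivations, so a p-value measures only the spread between these libraries. Short single-end reads were made in-house for the neoSFs and longer paired-end reads by a service for the monoiPSCs, so that platform and cell type cannot be told apart.

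Total counts were 14278794 and 16982978 in the FD2M1 and LSD1 neoSFs and 28684754 to 35564261 in the monoiPSCs. A normalized read count (NRC) is the deposited count times the scaling factor of its library, and 3 counts were worth an NRC of 5.85 and 4.75 in the neoSFs and 1.55 to 1.88 in the monoiPSCs. The 10 most abundant genes took 14.2% and 14.6% of the neoSF counts and 3.81% to 4.34% of the monoiPSC counts. The labelled cell types carried their markers. Of 9 fibroblast markers tested, 8 were lower in monoiPSCs and the ninth, TWIST1, was not called, and their summed NRC was 1168280 to 1379023 in neoSFs and 4083 to 10471 in monoiPSCs, with none at or under 3 counts. All 6 pluripotency markers were higher in monoiPSCs, with a summed NRC of 27.3 to 52.0 in neoSFs and 7945 to 11266 in monoiPSCs, and POU5F1, NANOG, SOX2, LIN28A and PRDM14 had at most 3 counts in each neoSF library.

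DCN, LUM, FMOD, PRELP and EPYC, 5 of the 6 SLRP genes, were differentially expressed (DE) and lower in monoiPSCs, none was DE and higher, and KERA was not DE. DE genes had an adjusted p of at most 0.05 in edgeR's quasi-likelihood test (Benjamini-Hochberg, over 13072 genes) and at least a 2-fold change, and log2 fold changes are monoiPSC against neoSF. Among all genes tested 21.6% were DE lower and 24.3% DE higher, or 45.9% in either direction, and 1.31% were DE lower by at least 100-fold, as DCN, LUM and EPYC were. Over the 6 SLRP genes the median log2 fold change was -7.17 and over all genes tested 0.08. For each of the 6 genes every monoiPSC library lay below both neoSF libraries, as it did for 37.1% of all genes tested, and the groups did not overlap in either direction for 73.2%. An exact two-sided permutation test of the difference in mean NRC gave p = 0.0667 for each gene, the smallest value that 2 against 4 libraries allow. DCN and LUM passed the filter on low values in both cell types. FMOD, PRELP, EPYC and KERA passed it through the neoSFs alone, since each fell under an NRC of 20 in some monoiPSC library. For these genes the filter itself favoured lower values in monoiPSCs. It did so too for PODN, B3GNT7, CHST1, COL6A3, CCN4, TGFB3, TLR2, TLR4, MMP13 and ACAN, given below with their lists. It favoured higher values for ITGA2, TLL2, GPC3 and NCAN, which passed through the monoiPSCs alone. The list counts and medians below include such genes. The shares and median of all genes tested include genes that entered through the monoiPSCs, so they are not a matched background for FMOD, PRELP, EPYC and KERA. In these bulk libraries, fewer cells that make an SLRP and less RNA per cell cannot be told apart.

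**Figure D1:**
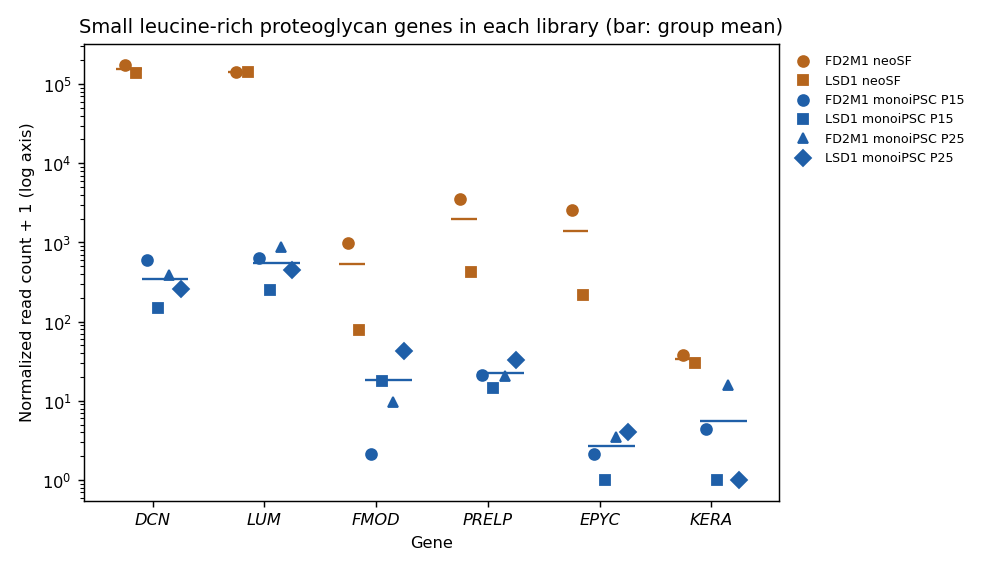
Normalized read count plus 1 (log axis) of the 6 SLRP genes in each of the 6 libraries, with neoSFs in brown and monoiPSCs in blue, 1 point per library and a bar at each group mean. DCN and LUM lie at 138479 or more in both neoSF libraries and at 875 or less in the 4 monoiPSC libraries, and FMOD, PRELP and EPYC differ by 8.24-fold to 12.8-fold between the neoSF libraries. Gene length is not corrected for, so heights are compared within a gene only.

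Decorin (DCN), the archetype of the family, binds collagen fibrils, carries a chondroitin or dermatan sulfate chain and binds TGF-beta. Its NRC was 175669 in the FD2M1 and 138479 in the LSD1 neoSFs, against 597 and 383 in the FD2M1 monoiPSCs and 148 and 259 in the LSD1 monoiPSCs at passages 15 and 25. Both neoSF libraries stood far above all monoiPSC libraries, and the FD2M1 passage 15 library was the highest of the monoiPSCs. DCN was 423-fold lower in monoiPSCs, with a log2 fold change of -8.73 (SE 0.57, n = 2 and 4, edgeR adjusted p = 3.3e-05).

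Lumican (LUM), a keratan sulfate proteoglycan of cornea and skin that spaces collagen fibrils, had nearly equal levels in the neoSFs. Its NRC was 143138 in the FD2M1 and 143131 in the LSD1 neoSFs, against 639 and 875 in the FD2M1 and 249 and 453 in the LSD1 monoiPSCs at passages 15 and 25. In monoiPSCs the FD2M1 line was the higher at both passages, and no monoiPSC library came near the neoSFs. LUM was 242-fold lower in monoiPSCs, with a log2 fold change of -7.92 (SE 0.50, edgeR adjusted p = 2.8e-05).

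DCN and LUM held most counts of the 6 SLRP genes with a row, uncorrected for gene length, in every library. BGN, OGN, OMD and ASPN are not part of these shares. The 6 genes took 1.17% and 1.05% of all counts in the FD2M1 and LSD1 neoSFs and 0.00248% to 0.00724% in the monoiPSCs. DCN and LUM were 97.8% and 99.7% of those counts in the neoSFs and 90.3% to 98.0% in the monoiPSCs. The count ratio of LUM to DCN was 0.815 and 1.03 in the FD2M1 and LSD1 neoSFs, 1.07 and 1.69 in the FD2M1 and LSD1 monoiPSCs at passage 15, and 2.29 and 1.75 at passage 25. Thus all 4 monoiPSC ratios were above both neoSF ratios, and the read format differs between the same groups. This ratio moves with gene length and read format, so it is compared across libraries and not read as a level of 1 gene over the other.

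Fibromodulin (FMOD), a keratan sulfate proteoglycan of tendon and cartilage that takes part in collagen cross-linking was uneven among libraries. Its NRC was 979 in the FD2M1 and 76.6 in the LSD1 neoSFs, against 1.12 and 8.79 in the FD2M1 and 17.0 and 41.7 in the LSD1 monoiPSCs at passages 15 and 25. The order of the strains was opposite in the cell types, since FD2M1 was the higher in neoSFs and LSD1 in monoiPSCs. The log2 fold change was -4.82 (SE 1.18, edgeR adjusted p = 0.0091), or 28.3-fold lower. Without the FD2M1 neoSF library it was -2.05 and no longer past the threshold (edgeR adjusted p = 0.192), without the LSD1 neoSF library -5.72, and without the LSD1 passage 25 library -5.77. With only the passage 25 monoiPSCs it was -4.27 (edgeR adjusted p = 0.0584).

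PRELP, the proline- and arginine-rich member that binds heparan sulfate and collagen and anchors basement membranes, also differed widely between the neoSF libraries. Its NRC was 3504 in the FD2M1 and 425 in the LSD1 neoSFs, against 20.2 and 19.5 in the FD2M1 and 13.7 and 31.4 in the LSD1 monoiPSCs at passages 15 and 25. The monoiPSC libraries lay close together and had 26 to 61 counts each. PRELP was 85.8-fold lower in monoiPSCs, with a log2 fold change of -6.42 (SE 0.76, edgeR adjusted p = 0.00035). The change was -4.23 without the FD2M1 and -7.26 without the LSD1 neoSF library, and it passed the threshold both times.

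Epiphycan (EPYC), a dermatan sulfate proteoglycan known from growth plate cartilage, was near the limit of detection in monoiPSCs. Its NRC was 2587 in the FD2M1 and 216 in the LSD1 neoSFs, against 1.12 and 2.50 in the FD2M1 and 0 and 3.09 in the LSD1 monoiPSCs at passages 15 and 25. The monoiPSC values stand for 0 to 6 counts per library. The log2 fold change of EPYC was -9.54 (SE 1.11, edgeR adjusted p = 0.00032), with a mean NRC of 1402 ± 1676 in neoSFs and 1.68 ± 1.39 in monoiPSCs (SD, n = 2 and 4). It was -6.87 without the FD2M1 and -10.43 without the LSD1 neoSF library, past the threshold in both fits. In the LSD1 passage 15 library, with 0 counts, EPYC was at least 137-fold below the LSD1 neoSFs, taking 3 counts as the limit of a count of 0. In the FD2M1 passage 15 library, with 2 counts, it was 2305 times below the FD2M1 neoSFs, with a counting interval of 638 to 19029 times that covers counting error only.

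Keratocan (KERA), a keratan sulfate proteoglycan of the cornea, was low in all libraries. Its NRC was 36.4 in the FD2M1 and 29.4 in the LSD1 neoSFs, against 3.37 and 14.9 in the FD2M1 and 0 in both LSD1 monoiPSC libraries. These values stand for 18.7 and 18.6 counts in neoSFs, 6 and 23.8 counts in the FD2M1 monoiPSCs and 0 in the LSD1 monoiPSCs. The groups did not overlap in NRC, but the log2 fold change of -2.80 (SE 1.29) did not pass the threshold (edgeR adjusted p = 0.0934). KERA was DE without the FD2M1 passage 25 library (-4.74, edgeR adjusted p = 0.0126), with strain as a replicate block that pairs each line with the neoSFs of its strain (-3.66, edgeR adjusted p = 0.0371), with only the passage 15 monoiPSCs (-4.18, edgeR adjusted p = 0.0273) and in limma on the deposited log2 values (-3.62, limma adjusted p = 0.0306).

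Each monoiPSC library was next set against the neoSFs of its own strain. DCN stood at 0.340% and 0.218% of the neoSF level in the FD2M1 line and at 0.107% and 0.187% in the LSD1 line at passages 15 and 25. LUM stood at 0.446% and 0.612% in the FD2M1 line and at 0.174% and 0.317% in the LSD1 line. Both genes thus kept less than 1% in each library, and the larger share was in FD2M1 at both passages. PRELP stood at 0.577% and 0.555% in the FD2M1 line and at 3.22% and 7.40% in the LSD1 line, the opposite order. The neoSF level that PRELP was set against was 8.24-fold higher in FD2M1. Its monoiPSC NRC was 20.2 and 19.5 in FD2M1 and 13.7 and 31.4 in LSD1, so the lines did not keep 1 order. FMOD stood at 0.115% and 0.897% in the FD2M1 line and at 22.2% and 54.4% in the LSD1 line, where it was 4.50 and 1.84 times below the LSD1 neoSFs. The 2 FMOD counts of the FD2M1 passage 15 library put it 872 times below the FD2M1 neoSFs, with a counting interval of 241 to 7202 times. KERA stood at 9.25% and 40.9% in the FD2M1 line, and the 0 counts of the LSD1 line allow up to 5.36% and 5.25%.

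**Figure D2:**
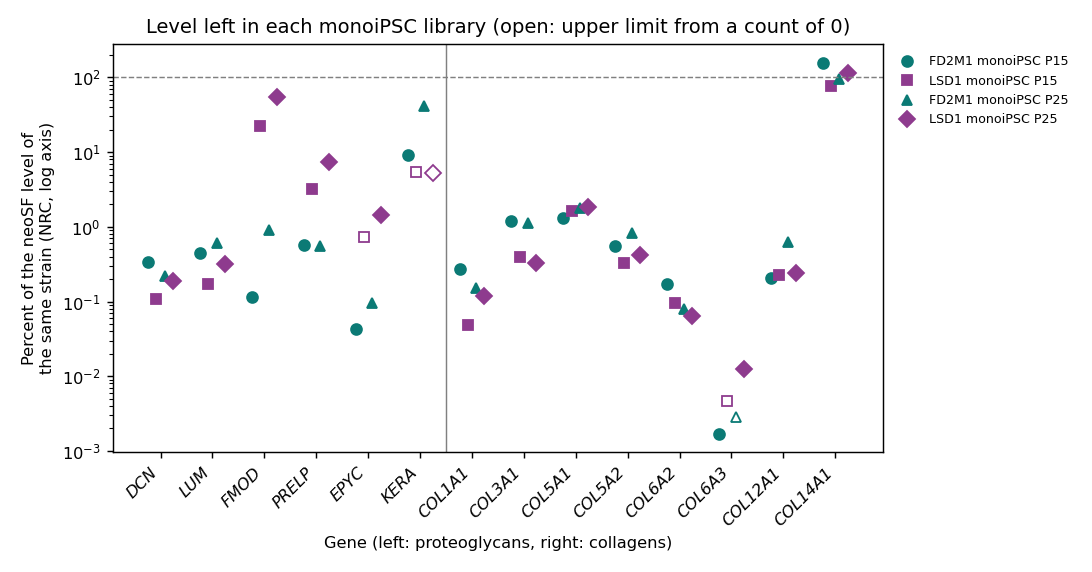
NRC of each monoiPSC library as a percent of the neoSFs of the same strain (log axis, dashed line at 100%), for the 6 SLRP genes and 8 fibrillar or associated collagen genes, with FD2M1 in green, LSD1 in purple and open symbols for upper limits from a count of 0. DCN and LUM lie between 0.107% and 0.612%, FMOD spans 0.115% to 54.4%, and COL14A1 lies at 77.8% to 158%.

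The neoSF libraries of the strains were far apart for FMOD, EPYC and PRELP and close for DCN, KERA and LUM. FD2M1 over LSD1 in the neoSFs was 12.8-fold for FMOD, 12.0-fold for EPYC and 8.24-fold for PRELP, but 1.27-fold for DCN, 1.24-fold for KERA and 1.00-fold for LUM. With 1 neoSF library per strain these ratios have no replicate check and no test. Among the 12238 tested genes that reached an NRC of 20 in either neoSF library, 2.08% were at least 5-fold higher in FD2M1 and 1.25% at least 5-fold higher in LSD1, a cut set after the values were seen.

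Some markers of tendon and cartilage cells differed between the neoSF libraries in the same direction. ACAN, the cartilage proteoglycan aggrecan, was 39.3-fold higher in the FD2M1 neoSFs, with an NRC of 67335 against 1712. SOX9, a regulator of chondrocyte identity, was 12.5-fold higher, with 19063 against 1519, and TNMD, a tendon marker, was 51.1-fold higher, with 297 against 5.81. The TNMD ratio is imprecise, since 3 counts were worth an NRC of 4.75 in the LSD1 neoSFs. COMP was 1.60-fold higher and MKX was at 0.825 of the LSD1 level, SCX was at 0 in every library and COL2A1 is not analysed here. The summed NRC of the 6 markers with a row was 97390 to 236704 in neoSFs and 2191 to 2732 in monoiPSCs. Of the 4 tested, all were lower in monoiPSCs, and SCX and TNMD had at most 3 counts in each monoiPSC library. The part of such cells in the levels of FMOD, PRELP and EPYC was not tested.

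**Figure D3:**
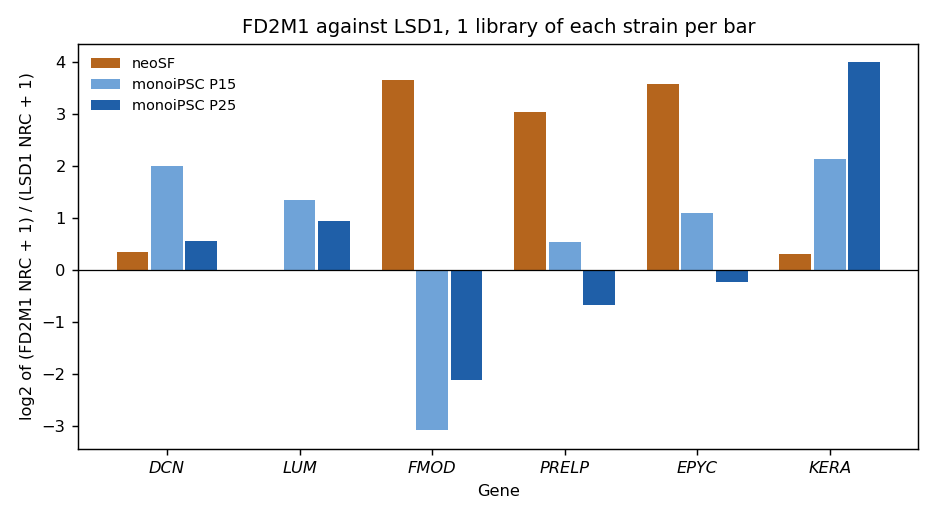
Log2 ratio of FD2M1 to LSD1 (NRC plus 1) for the 6 SLRP genes in neoSFs, in monoiPSCs at passage 15 and in monoiPSCs at passage 25, 1 library of each strain per bar and no replicates. FMOD points up in neoSFs (12.8-fold higher in FD2M1) and down in both monoiPSC passages, while LUM is at 0 in neoSFs and up in monoiPSCs.

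Within monoiPSCs, DCN was 4.03-fold and LUM 2.56-fold higher in FD2M1 than in LSD1 at passage 15, and 1.48-fold and 1.93-fold higher at passage 25. FMOD was 15.2-fold and 4.74-fold higher in LSD1 at the same passages. PRELP was 1.48-fold higher in FD2M1 at passage 15 and at 0.619 of the LSD1 level at passage 25. COL1A1, the main fibrillar collagen of fibroblasts, was 4.47-fold higher in FD2M1 at passage 15 and 1.03-fold at passage 25. Of the 6 SLRP genes with a row, only DCN and LUM passed the filter among the 12252 genes tested within monoiPSCs. Neither differed between the lines beyond the edgeR threshold, with passage as a covariate. The log2 difference of LSD1 minus FD2M1 was -1.28 for DCN (SE 0.37, edgeR adjusted p = 0.246) and -1.15 for LUM (SE 0.20, edgeR adjusted p = 0.136). Both had an unadjusted p under 0.05, as did 14.2% of all genes tested, of which 0% were DE. DESeq2 called LUM DE (adjusted p = 0.00726) and left DCN just outside (adjusted p = 0.0523), and without the filter it called both, with adjusted p of 0.00738 and 0.0472. The share of all genes that DESeq2 called in this contrast was not counted, so these calls are not read as particular to DCN and LUM.

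In the edgeR fit between the lines without the filter, 11.3% of all genes had an unadjusted p under 0.05. FMOD and KERA, tested without the filter, had unadjusted p of 0.00857 and 0.0209 in edgeR for the same contrast and did not pass the adjustment (edgeR adjusted p = 0.274 and 0.336). Their directions were opposite, since FMOD was higher in LSD1 while KERA had 0 counts in both LSD1 libraries. EPYC and PRELP had log2 differences of -0.62 and 0.09 there.

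Passage 25 was also compared with passage 15, with strain as a covariate. The log2 difference was 0.06 for DCN (SE 0.37, edgeR adjusted p = 0.969) and 0.64 for LUM (SE 0.20, edgeR adjusted p = 0.442). Without strain as a covariate and with 1 library left out, the difference of DCN ran from -0.88 (without the LSD1 passage 15 library) to 1.11 (without the FD2M1 passage 15 library), and that of LUM from 0.013 (without the FD2M1 passage 25 library) to 1.40 (without the FD2M1 passage 15 library). Neither gene was DE, nor was any SLRP gene in the fit without the filter, where FMOD had a log2 difference of 1.81 (SE 0.74, edgeR adjusted p = 0.618). LUM and FMOD had an unadjusted p under 0.05, as did 9.35% of all genes tested and 7.9% without the filter. In NRC, LUM and FMOD were higher at passage 25 in both lines, while DCN was lower at passage 25 in FD2M1 and higher in LSD1.

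The SLRP genes lie in runs. The gene identifiers place DCN (gene 100011570), LUM (100014644), KERA (100011488) and EPYC (100011434) on chromosome 8 of MonDom5, and FMOD (100012571) and PRELP (100016224) on chromosome 2. In the RefSeq annotation of another opossum assembly, mMonDom1.pri, which was used for gene order only, EPYC, KERA, LUM and DCN follow each other with no gene between them, and FMOD and PRELP are followed by OPTC, another SLRP. No annotated gene overlapped a member. On the DCN side the nearest gene with reads was BTG1, a growth-restraining gene, with an NRC of 7675 and 4641 in the FD2M1 and LSD1 neoSFs and 2599 to 4866 in monoiPSCs (log2 fold change -0.78, SE 0.30, edgeR adjusted p = 0.0526). On the EPYC side CCER1 was at 0 in both neoSFs and at 2.37 to 6.17 in monoiPSCs. BTG2, next to FMOD, had an NRC of 1984 and 4281 in neoSFs and 2905 to 3630 in monoiPSCs (log2 fold change 0.16, SE 0.29, edgeR adjusted p = 0.645). OPTC was at 0 in 5 libraries and at 1.26 in the FD2M1 passage 25 library. Beyond them, CHIT1 had an NRC of at most 42.9 and ATP2B4 of 17.1 to 71.8 over the 6 libraries, and LAX1 was near 0. Neither BTG1 nor BTG2 was DE, whereas the SLRP genes nearest to them, DCN and FMOD, were. Between DCN and BTG1 lie LOC100014762 and LOC103093247, both without reads.

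**Figure D4:**
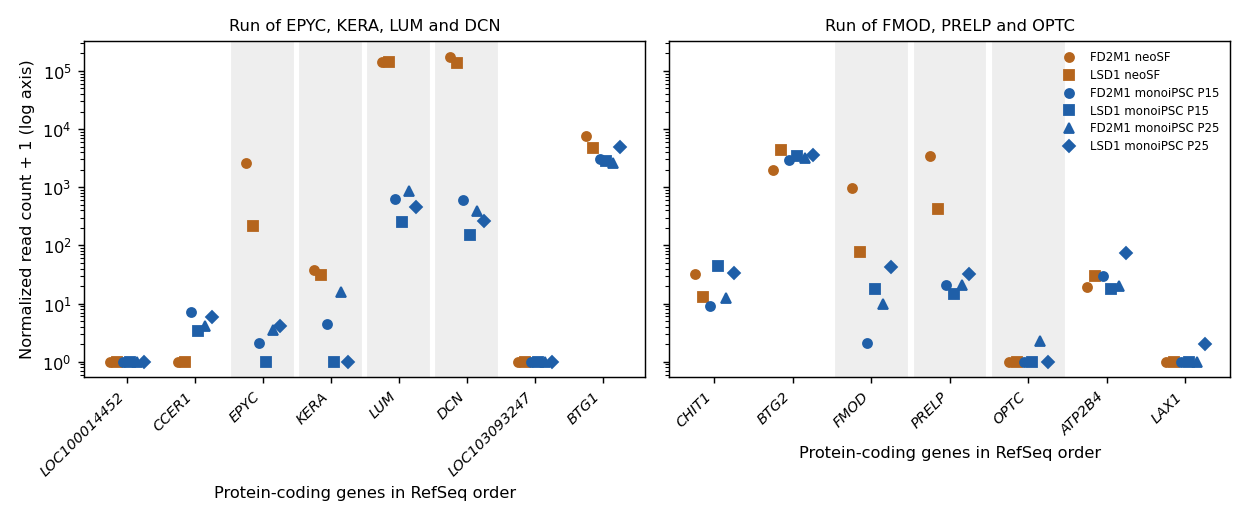
NRC plus 1 (log axis) of the protein-coding genes with a row in and beside both SLRP runs, in their order in the RefSeq annotation of mMonDom1.pri (SLRP genes on grey, 1 point per library, neoSFs brown and monoiPSCs blue, not to scale in distance). DCN, LUM and EPYC separate the cell types widely, BTG1 and BTG2 overlap between them, and OPTC lies at or next to 0.

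DCN and LUM had the highest mean NRC of the 6 SLRP genes with a row. Each was compared with other tested genes by the Euclidean distance of centred log2 values over the 6 libraries. Genes whose symbol is only a LOC number were left out of this ranking. The genes nearest to DCN were COL1A1 (distance 0.97), LGALS3 and MYO1D (1.22 each), LUM (1.27) and C1QTNF2 (1.44). Those nearest to LUM were IGF2BP3 (0.84), COL5A2 (0.96), COL12A1 (1.10), DCN (1.27) and C1QTNF2 (1.37). DCN and LUM were thus each the 4th nearest of the ranked genes to the other. The other SLRP genes were farther away, with EPYC 72nd, PRELP 179th, KERA 603rd and FMOD 801st from DCN. All these distances rest mainly on the difference between cell types, which every one of these genes shares, and the libraries and their scaling are common to all.

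Of the 8 other leucine-rich proteoglycan genes on the fixed list, 6 had a row and 3 were tested, and all 3 were lower in monoiPSCs (median -2.86 on the log2 scale). Tsukushi (TSKU), a secreted modulator of growth factor signalling, had an NRC of 2383 and 1834 in neoSFs and 310 to 521 in monoiPSCs (log2 fold change -2.21, SE 0.22, edgeR adjusted p = 0.000176). Podocan (PODN) had 256 and 123 in neoSFs and 1.05 to 23.0 in monoiPSCs (log2 fold change -3.79, SE 0.81, edgeR adjusted p = 0.00496), and -3.17 without the FD2M1 neoSF library. The podocan-like gene PODNL1 had 458 and 254 in neoSFs and 30.0 to 60.6 in monoiPSCs (log2 fold change -2.86, SE 0.37, edgeR adjusted p = 0.000492). OPTC, CHADL and NYX did not pass the filter, with CHADL at 0 in both neoSFs and 3 to 8 counts in monoiPSCs, and ECM2 and CHAD are not analysed here.

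The enzymes that build the sugar chains were DE lower or not DE, and none was DE higher. CSGALNACT1, named after its value was seen, had an NRC of 107 and 102 in neoSFs and 149 to 231 in monoiPSCs. Its log2 fold change of 0.89 (SE 0.29, edgeR adjusted p = 0.031) missed the call on the 2-fold threshold only. Of 11 tested enzymes that start and extend chondroitin and dermatan sulfate chains, 8 were DE lower and 3 not DE, and the median was -1.26. Over all genes tested, 21.6% were DE lower and 24.3% DE higher, shares that stand beside this and each later list count. The range of the DE enzymes ran from DSEL, an epimerase that makes dermatan sulfate (-4.01, SE 0.31, edgeR adjusted p = 5.6e-05), to CSGALNACT2, which starts the chondroitin chain (-1.02). CSGALNACT2 was not DE without the LSD1 neoSF library (-0.77), without the FD2M1 passage 15 library (-0.92), with only the passage 15 monoiPSCs (-0.98) or when libraries were scaled by total count alone (-0.50). FAM20B, a kinase that acts on the linkage sugars, was not DE, with an NRC of 774 and 1277 in neoSFs and 1265 to 1373 in monoiPSCs. XYLT1, which attaches the first sugar to the core protein, was at -2.35 and CHSY1, a polymerase of the chain, at -3.47, both DE and both named after their values were seen. When libraries were scaled by total count alone, 5 of these enzymes were lower and 1 higher.

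Of 9 tested enzymes that sulfate these chains or supply the sulfate, 6 were DE lower and 3 not DE, with a median of -1.89. They ran from CHST13, a chondroitin sulfotransferase (-3.58, SE 0.26, edgeR adjusted p = 4.3e-05), to CHST14, which sulfates dermatan (-1.55, SE 0.19, edgeR adjusted p = 0.00045). PAPSS1, which makes the sulfate donor, was not DE and had an NRC of 1551 and 1380 in neoSFs and 1510 to 2160 in monoiPSCs. Of 6 tested keratan sulfate enzymes, 4 were DE lower and 2 not DE, with a median of -2.51. Of those lower, B3GNT7 and CHST1 passed the filter through the neoSFs alone. CHST6 had an NRC of 1.95 and 0 in neoSFs and 5.26 to 23.7 in monoiPSCs, and did not pass it. The count and median thus partly reflect the filter. B3GNT7, which extends keratan chains, had 198 and 78.4 in neoSFs and 4.12 to 10.2 in monoiPSCs (-4.30, SE 0.51, edgeR adjusted p = 0.000349) and was at -3.51 without the FD2M1 neoSF library, and B4GALT4 was at -1.59. B3GNT2 was not DE, with 1857 and 2757 in neoSFs and 2186 to 6178 in monoiPSCs.

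The collagens that SLRPs bind or accompany were lower in monoiPSCs with 1 exception. Of 8 tested, 7 were DE lower and COL14A1 was not DE, with a median of -7.84. COL6A3, a chain of the beaded collagen VI, had an NRC of 66161 and 33471 in neoSFs and 0 to 4.12 in monoiPSCs, which stand for 0 to 8 counts. COL1A1 had an NRC of 938218 and 1170167 in neoSFs and 575 to 2572 in monoiPSCs, and it left 0.0492% to 0.274% of the own-strain neoSF level, next to 0.107% to 0.340% for DCN. COL5A1, a chain that starts fibrils, left 1.33% to 1.82% and had the smallest change of the DE collagens (-5.85). COL14A1, a collagen on the fibril surface, had 297 and 260 in neoSFs and 202 to 470 in monoiPSCs (0.26, SE 0.35, edgeR adjusted p = 0.531).

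Of 14 tested ligands and receptors of SLRPs, 7 were DE lower, 1 DE higher and 6 not DE, with a median of -0.96. Over all genes tested, 45.9% were DE in either direction. CCN4, a matricellular protein that binds decorin, had an NRC of 32376 and 37274 in neoSFs and 8.41 to 21.3 in monoiPSCs (-11.25, SE 0.38, edgeR adjusted p = 7.8e-06). ITGA2, a chain of a collagen-binding integrin, was the gene that rose, from 17.9 and 10.8 in neoSFs to 145.9 to 261 in monoiPSCs (3.94, SE 0.47, edgeR adjusted p = 0.000366). TGFB1, which decorin and fibromodulin bind, was not DE, with 2579 and 2138 in neoSFs and 1148 to 3015 in monoiPSCs. TGFB3, TLR4, TLR2 and EGFR, named after their values were seen, were DE lower, with log2 fold changes of -7.53, -4.63, -3.16 and -3.83. The receptors ERBB2, MET, IGF1R, KDR and CD14 of the same list, also named afterwards, were not DE. Their log2 fold changes were -0.04, -0.58, 0.02, -0.37 and 0.98. Without the FD2M1 neoSF library TGFB3 was at -6.42 and EGFR at -3.20, and without the LSD1 neoSF library TGFB3 was at -8.16 and TLR4 at -3.96, all still DE. The toll-like receptors TLR2 and TLR4 and the receptor EGFR are known to take soluble SLRPs as ligands.

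Of 10 tested proteases and helpers that process the matrix, 7 were DE lower, 1 DE higher and 2 not DE, with a median of -2.74, and with strain as a replicate block 2 were DE higher. MMP13, a collagenase that also cuts fibromodulin, had an NRC of 484 and 30.1 in the FD2M1 and LSD1 neoSFs, 0 in both passage 15 and 12.6 and 11.3 in the passage 25 monoiPSCs (-5.32, SE 1.44, edgeR adjusted p = 0.014), and -2.25 without the FD2M1 neoSF library (edgeR adjusted p = 0.283). It was -6.24 without the LSD1 neoSF and -5.93 without the FD2M1 passage 25 library. DESeq2 did not call MMP13 (adjusted p = 0.0571). Its neoSF ratio between strains thus had the direction of that of FMOD. BMP1, a protease that matures procollagen and several SLRPs, was DE lower at -1.94 (named after its value was seen). TLL2, a protease of the same family, rose from 30.0 and 13.7 in neoSFs to 1012 to 2343 in monoiPSCs (6.46, SE 0.54, edgeR adjusted p = 7.7e-05). ADAMTS4, an aggrecanase, was not DE, with 1093 and 2890 in neoSFs and 921 to 2529 in monoiPSCs.

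**Figure D5:**
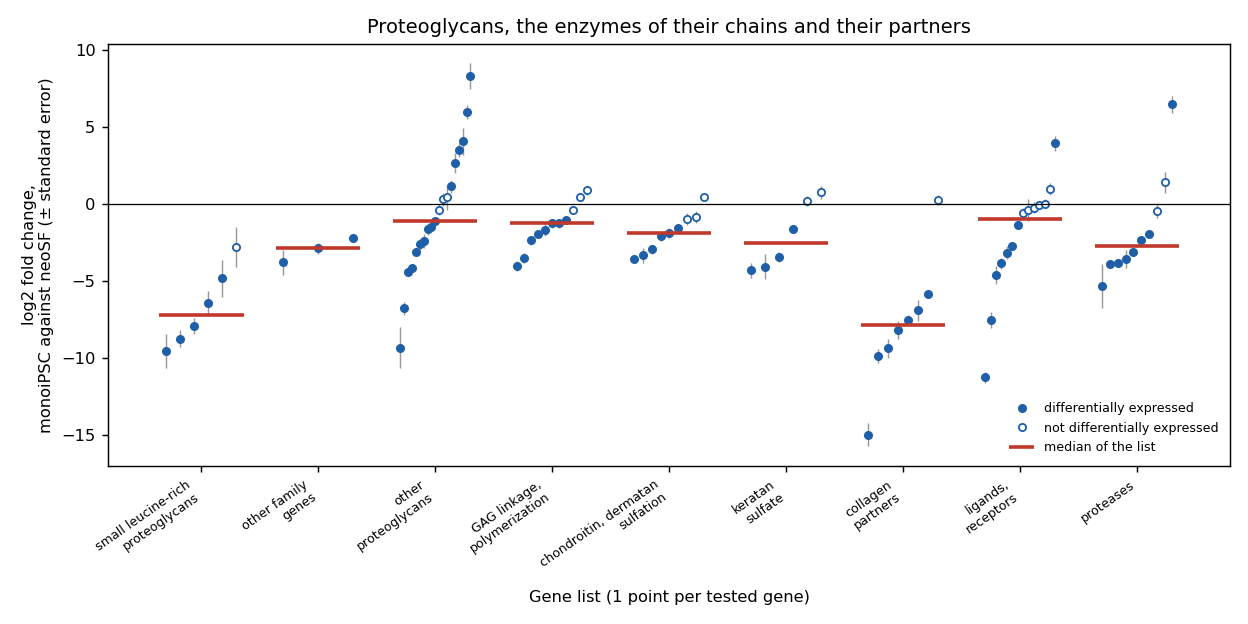
Log2 fold change of monoiPSC against neoSF for every tested gene of the fixed lists (filled, DE; open, not DE; grey bars, 1 standard error from edgeR; red bar, median of the list). The SLRP genes have a median of -7.17 and the collagens of -7.84, the enzyme lists lie between -1.26 and -2.51, and ITGA2 and TLL2 are the DE points above 0 outside the other proteoglycans.

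Markers of further cell types differed between the groups as well. The smooth muscle and pericyte list had 2 of 4 tested genes lower and the adipocyte list 2 of 2, the leukocyte list 1 of 2 and the endothelial list 0 of 1, none with a gene higher. MYOG of the skeletal muscle list, CDH1 of the keratinocyte list and DCT of the melanocyte list were higher in monoiPSCs, and the other tested genes of those lists, 2 skeletal muscle and 1 melanocyte, were not DE. The summed NRC of the smooth muscle and pericyte list was 49722 to 98397 in neoSFs and 439 to 4398 in monoiPSCs, and that of the adipocyte list 504 to 513 and 33.1 to 92.6. The leukocyte list summed to 98.2 to 113 in neoSFs and 30.6 to 40.0 in monoiPSCs, and the endothelial list to 52.3 to 217 and 66.8 to 140. In the other direction, the melanocyte list summed to 253 to 402 in neoSFs and 4601 to 15555 in monoiPSCs, the skeletal muscle list to 334 to 1180 and 1341 to 10354, and the keratinocyte list to 11.7 to 27.5 and 1476 to 2890. The part of any of these cell types in the SLRP levels was not tested. ADIPOQ, CDH5 and KRT14 had at most 3 counts in each library. TP63 of the keratinocyte list had at most 3 counts in each monoiPSC library and more in at least 1 neoSF library. The summed NRC of the keratinocyte list in monoiPSCs was thus almost all CDH1.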

How the data were processed

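The RNA-seq data comprised 2 libraries of neoSFs and 4 of monoiPSCs. The authors aligned reads to MonDom5 with StrandNGS, filtered them and counted them on RefSeq genes, and whether the counting used strand is not given in the sources used here. The authors deposited raw counts, but since 87.1% of values above 0 were not whole, these were taken as estimated counts and rounded. The log2 values that the authors deposited had been normalized with DESeq and equal the log2 of the count times 1 factor per library (0.515 to 1.95).

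Genes that reached an NRC of 20 in the 2 neoSF libraries or in each monoiPSC library were tested with edgeR 4.0.16 (R 4.3.3, quasi-likelihood, TMM factors 0.776 to 1.17, no block). SE is the log2 fold change over the square root of F. On simulated counts of the 13072 genes, edgeR recovered 199 of 200 changed genes and called 2 unchanged ones. The simulation changed few genes, all by the same fold, with the same dispersion for every gene and no strain or line effect. It therefore checks that the code runs as intended and gives no error rate for these data. DESeq2 1.42.0, limma 3.58.1, other scalings, no filter, a block and left-out libraries were alternatives. Strain pairs each monoiPSC line with the neoSFs it was derived from, and the deviations of both groups correlated at r = 0.0411 across 13072 genes, which are not independent replicates.

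The members and lists were chosen with earlier results of these data known. Named genes were the SLRP family, from each list the highest and lowest DE gene and the most abundant gene not DE, markers, neighbours in the gene order, and the 5 genes nearest to DCN and LUM. Lists were described by counts and medians, without a set test. No gene lengths of MonDom5 were used, so levels are not compared between genes, and no sequence is shown.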

Additional observations from a re-analysis of the deposited data

Results flagged for a closer look

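DCN moved in opposite directions between passage 15 and passage 25 in the lines, by -0.64 in FD2M1 and 0.81 in LSD1 on the scale of log2(NRC + 1). PRELP did so as well, by -0.052 in FD2M1 and 1.14 in LSD1. FMOD was 12.8-fold higher in FD2M1 than in LSD1 in neoSFs and lower in FD2M1 at both monoiPSC passages. Each of these differences rests on 1 library per strain and passage and was not tested.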

How the results depend on the processing

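DCN, LUM, PRELP and EPYC kept their direction and their call under all 14 alternatives, with log2 fold changes of -9.13 to -8.21, -8.26 to -7.40, -7.26 to -4.23 and -11.00 to -6.87. FMOD (-5.77 to -2.05) lost its call without the FD2M1 neoSF library and with only the passage 25 monoiPSCs, and KERA (-4.74 to -2.09) gained one in 4 alternatives. Scaling by total count alone moved the median of all genes tested by 0.52 and raised the share of higher among DE genes from 52.9% to 71.3%, with 4786 genes higher against 3176. Under it 5 enzymes of chain synthesis were lower instead of 8 and 1 was higher, 1 keratan sulfate enzyme, 2 ligands or receptors and 2 proteases were higher, and TGFB1 and ADAMTS4 turned to 0.28 and 0.087. Without the filter 1 keratan sulfate enzyme was higher. With strain as a replicate block, 2 proteases were higher, and over the left-out libraries 1 to 2 were. Between the monoiPSC lines, DESeq2 called 1 SLRP gene and, without the filter, an alternative chosen after seeing the data, 2, against 0. The share of all genes that DESeq2 called between the lines was not counted. Apart from the protease count, the block made KERA DE and changed no other call of a gene tested in these alternatives and no other list count by over 1.5 times. Without strain as a block, the passage difference of DCN turned from 0.06 to -0.22, and with a library left out it was -0.88 to 1.11. TGFB1, not DE, turned to 0.16 with only passage 25. With libraries left out in turn, 3 genes that were not DE changed sign, with ranges of -0.0072 (without the FD2M1 passage 15 library) to 0.42 for COL14A1, -0.96 to 0.46 (without the LSD1 neoSFs) for ADAMTS4 and -0.20 (without the LSD1 neoSFs) to 1.10 for GPC4. The cause was not tested. Of 310 list counts under alternatives 299 were within 1.5 times of the value reported. Depth limits EPYC and KERA, with 0 to 6 and 0 to 23.8 counts per monoiPSC library.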

Other observations

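Other proteoglycan core proteins moved both ways. Of 19 tested, 10 were DE lower in monoiPSCs, 6 DE higher and 3 not DE, with a median log2 fold change of -1.08. Over all genes tested, 21.6% were DE lower and 24.3% DE higher. ACAN had the lowest log2 fold change (-9.34, SE 1.33, edgeR adjusted p = 0.000793), and it was at -5.02 without the FD2M1 and -10.30 without the LSD1 neoSF library, DE in both fits. GPC3, a glypican that carries heparan sulfate at the cell surface, had 0 and 1 counts in the neoSFs and an NRC of 195 to 453 in monoiPSCs. SPOCK2 and NCAN, named after their values were seen, were also DE and higher. SPOCK2 had an NRC of 63.4 and 39.6 in neoSFs and 2172 to 4510 in monoiPSCs, and NCAN 5.85 and 66.1 against 364 to 1084. GPC4, the most abundant gene of the list that was not DE, had 10187 and 4105 in neoSFs and 5245 to 10887 in monoiPSCs.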
